A study of Mus musculus with 20 samples.

Results

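The ribosomal protein genes examined here are the cytoplasmic ribosomal proteins of the mouse, taken as every gene whose symbol is Rpl or Rps followed by a number (with an optional a, l, x or y), Rplp0, Rplp1, Rplp2 or Rpsa. Only array probe sets annotated with a single symbol were used, and they gave 62 of 19607 genes and 195 of 182058 probe sets. Of these genes 36 encode proteins of the large subunit, 23 proteins of the small subunit and 3 proteins of the stalk of the large subunit. Probe sets that list several symbols were left out of the gene values, which leaves Rpl15, Rpl17, Rpl24, Rpl7a, Rpl9, Rps16, Rps23 and Rps3a without a gene value.

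The series measured total RNA of C57BL/6 mice on 20 arrays and asked how loss of Gfi1, a transcriptional repressor of blood cells, alters expression in thymocytes after irradiation and in thymic tumours. Thymocytes labelled wild type (WT) or Gfi1 knockout (KO) were either untreated (2 arrays of each) or irradiated (3 of each). Tumours came from Gfi1 f/f mice, without Cre (WT) or with Mx1-Cre (KO), all injected with the mutagen ENU. One set had ENU alone (3 arrays of each) and the other carried a Notch1-CT transgene as well (2 of each). All tumour mice, the WT ones included, received pIpC, which switches on Mx1-Cre, once ultrasound had shown a tumour, and the tumour cells were harvested weeks after that. Mx1-Cre acts in interferon-responsive cells in general, not in T cells alone. The KO allele of the thymocytes, the radiation dose and the time after it are not given in the labels, and nothing states that arrays of a group came from separate mice.

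A ribosome holds one copy of nearly every ribosomal protein, so cells make these proteins in matched amounts, and their mRNAs are among the most abundant in dividing cells. Many of these mRNAs begin with a C followed by an unbroken run of pyrimidines, the terminal oligopyrimidine tract, through which the mTOR pathway controls their translation. Several ribosomal proteins that are not built into ribosomes bind MDM2 and stabilise p53, the factor that also drives the thymocyte response to radiation.

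Values are on the log2 scale of the deposited table, whose base was taken to be 2. They rank arrays for one gene, not one gene against another. The median over all probe sets of an array ran from 9.08 to 9.28. Arrays of a thymocyte group correlated at 0.9897 or more over all genes, and the 2 KO Notch arrays at 0.889. The second KO Notch array stood apart: its B-cell markers averaged 12.22, against 7.48 to 9.05 on the other 19 arrays, and its T-cell markers averaged 9.55, against 11.08 to 12.78. The Gfi1 probe sets did not follow the labels in every group. Probe set 2 read 11.95 ± 0.17 (SD, n = 2) in WT and 5.64 ± 0.03 (SD, n = 2) in KO untreated thymocytes, and 11.22 ± 0.30 (SD, n = 2) against 6.70 ± 0.56 (SD, n = 2) in Notch tumours. In irradiated thymocytes it read 11.50 ± 0.15 (SD, n = 3) in WT and 12.73 ± 0.01 (SD, n = 3) in KO, and probe sets 4 to 8 were the lower ones there, probe set 6 for example at 9.74 ± 0.13 (SD, n = 3) in WT and 7.31 ± 0.38 (SD, n = 3) in KO. That probe set read 10.17 and 10.16 in the WT and KO untreated groups. The Gfi1 probe sets low in KO thus differed between untreated and irradiated thymocytes, apart from probe set 4, which was lower in KO in both. The ENU tumours labelled KO read 10.85 ± 0.15 (SD, n = 3) on probe set 2 against 11.12 ± 0.50 (SD, n = 3) in the WT ones, and the groups overlapped. Their probe sets 1, 6 and 8 were lower than in WT without overlap, at 9.46 to 9.64 against 9.73 to 10.36, 9.02 to 9.37 against 9.496 to 10.12, and 7.31 to 7.97 against 8.09 to 8.59. The 8 Gfi1 probe sets thus gave no uniform reading of the KO label in ENU tumours.

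Some members are shown first by the start of their transcripts, chosen because such a tract stands at that place. RefSeq (GRCm38.p6) gave a promoter window for 50 of the 62 members, 61 windows in all. Each line below spans the 15 bases before and the 15 bases from the annotated start on the gene's own strand. Capitals mark a run of 5 or more C or T that begins with a C at the start base. The first 5 genes fell after irradiation in both genotypes, Rps6 was called in KO alone, and Rps10 was called in neither.
Rps18 (chr17:33955651-33955680, minus strand): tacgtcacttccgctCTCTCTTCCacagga
Rpl38 (chr11:114668565-114668594, plus strand): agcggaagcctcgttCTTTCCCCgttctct
Rpl35 (chr2:39005117-39005146, minus strand): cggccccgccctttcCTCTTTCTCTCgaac
Rps21 (chr2:180257364-180257393, plus strand): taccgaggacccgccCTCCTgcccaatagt
Rplp2 (chr7:141447636-141447665, plus strand): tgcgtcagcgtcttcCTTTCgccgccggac
Rps6 (chr4:86857353-86857382, minus strand): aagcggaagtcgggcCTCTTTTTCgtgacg
Rps10 (chr17:27635230-27635259, minus strand): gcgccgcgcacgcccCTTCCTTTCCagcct

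Such a run stood at the annotated start of 11 of 61 member promoters (18%), against 2.51% of all 32851 RefSeq promoters, and measured 5 to 11 bases. Among genes with a window, 7 of 20 that fell in both genotypes had it, and 1 of 17 called in neither. Rps6, Rpl14 and Rpl35a, called in KO alone, had it as well. The part of this run in the fall was not tested. The annotated start can differ from the start used in thymocytes by a few bases, and the run is searched at that base only. For comparison, 4 genes without such a run at this base are given, of which Rps12 and Rps19 fell in both genotypes and Rps27l and Rpl22 in neither.
Rps12 (chr10:23787195-23787224, minus strand): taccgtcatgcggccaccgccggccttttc
Rps19 (chr7:24884577-24884606, plus strand): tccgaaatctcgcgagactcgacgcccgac
Rps27l (chr9:66946071-66946100, plus strand): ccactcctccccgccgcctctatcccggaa
Rpl22 (chr4:152325711-152325740, plus strand): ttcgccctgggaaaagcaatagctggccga
Other motifs were counted over the whole 300 bases of each window and on both strands. CCGGAAG, the core bound by ETS-family factors such as GABP, was found in 39.3% of member promoters and 8.86% of all promoters. TCTCGCGA was found in 16.4% and 0.995%, AAGATGGC (the YY1 core) in 9.84% and 2.75%, GGGCGG (the Sp1 box) in 57.4% and 35.7%, and TATAAA in 9.84% and 13.6%. GGGCGG can overlap other GC-rich matches, and a match is a description of the letters only.

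The first comparison set irradiated against untreated thymocytes with the same genotype label. The untreated and irradiated KO groups differed in which Gfi1 probe sets were low. Probe set 2 averaged 5.64 in untreated KO and 12.73 in irradiated KO. In KO, irradiation and this difference between the groups cannot be told apart. Ribosomal protein mRNAs were lower in irradiated thymocytes of both genotypes, and none was called higher. By limma with Benjamini-Hochberg adjustment over 12747 genes, 25 of 58 tested members were lower in WT and 31 of 58 in KO at an adjusted p under 0.05. Over all genes tested 21.7% were called lower in WT and 23.7% in KO, and 13% and 15.1% were called higher. The median log2 difference of the tested members was -0.30 in WT and -0.39 in KO, against -0.02 for all genes tested in each genotype. The 58 are the members that passed a filter on low values, and Rpl10l, Rpl11, Rpl39l and Rpl3l did not pass it. Without the filter the median over all 62 was -0.26 in WT and -0.37 in KO, against 0.06 and 0.07 over 19607 genes. Of the 54 members above the filter's level on every array, 23 were lower in WT and 28 in KO.

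These counts depend on few arrays. Leaving out 1 array at a time gave 5 to 26 members called in WT and 17 to 33 in KO. The WT count was 5 without the first untreated WT array and 15 without the third irradiated WT array, of which 14 were lower. The KO count was 17 without the first and 19 without the second untreated KO array. With the tumour arrays in the same model the counts were 4 in WT and 10 in KO, and the median differences were the same. The array names carry running numbers, 77 to 80 for the untreated arrays and 45 to 65 for all others, so irradiation and the array number cannot be told apart.

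**Figure D1:**
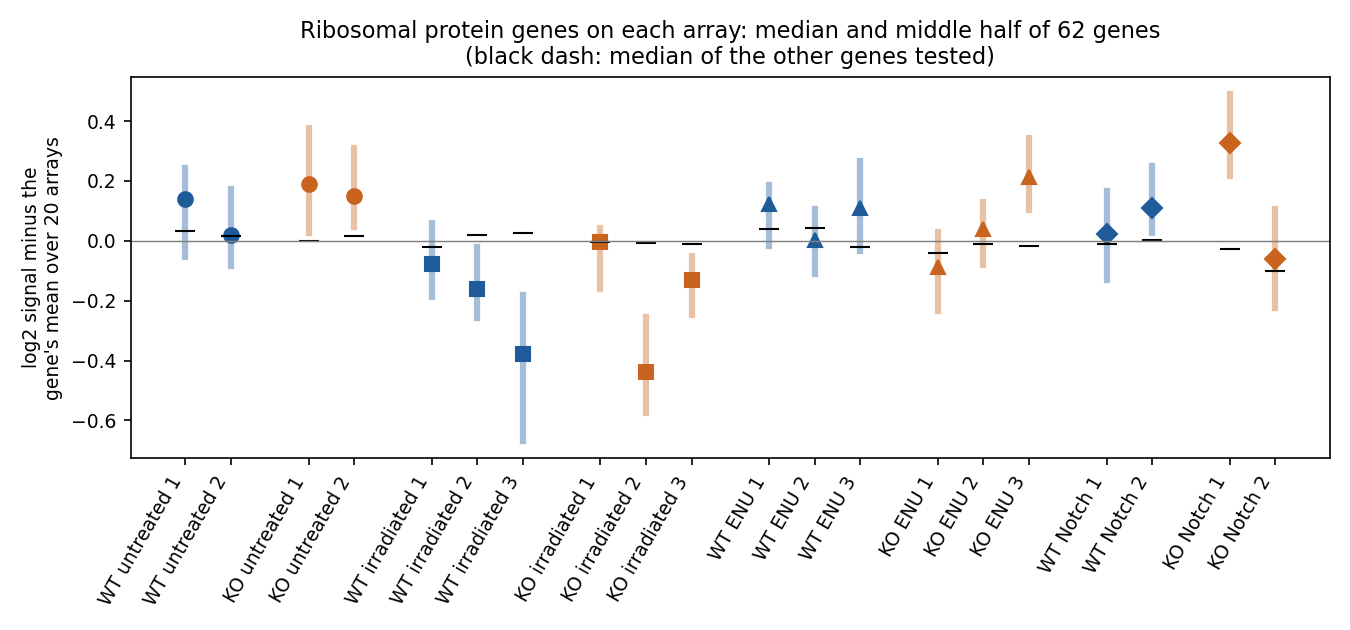
Each point is the median over the 62 ribosomal protein genes on 1 array, with each gene's mean over 20 arrays subtracted (log2 signal), and the bar is the interquartile range; a black dash is the median of the other genes tested. The 6 irradiated arrays lie between -0.44 and 0.00 and the 4 untreated arrays between 0.02 and 0.19, while the tumour arrays spread from -0.09 to 0.33.

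The median over the 62 genes on the irradiated WT arrays was -0.08, -0.16 and -0.38, and on the irradiated KO arrays 0.00, -0.44 and -0.13. The untreated WT arrays had 0.14 and 0.02, and the untreated KO arrays 0.19 and 0.15. The groups did not overlap, but the third irradiated WT array and the second irradiated KO array lay well below the others of their groups. On those arrays 57 and 58 of the 62 genes were below their own mean.

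Among proteins of the small subunit, Rps18 showed the largest fall of all members in both genotypes. It lies in the head of the small subunit, where the subunits meet. Its signal was 9.73 and 9.47 on the untreated WT arrays and 8.36, 8.09 and 7.88 on the irradiated ones. On the KO arrays it was 9.93 and 9.78 untreated and 8.16, 7.69 and 8.55 irradiated. Every irradiated array was below every untreated one. The tumour arrays, at 8.59 to 9.35, also lay below every untreated array. The log2 difference was -1.49 ± 0.19 (SE) in WT (limma adjusted p = 1.64e-05) and -1.72 ± 0.19 in KO (limma adjusted p = 3.04e-06). The gene rests on 1 probe set, which was above the filter's level on 18 of 20 arrays.

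Rps12, another protein of the small-subunit head, was second. Its gene value was 10.33 and 10.34 in untreated WT against 9.35, 9.24 and 8.99 in irradiated WT, and 11.05 and 10.94 in untreated KO against 10.05, 8.95 and 9.43 in irradiated KO. The groups did not overlap within either genotype. The difference was -1.14 ± 0.21 in WT (limma adjusted p = 0.000483) and -1.52 ± 0.21 in KO (limma adjusted p = 2.9e-05). Its 2 probe sets differed: probe set 2 had log2 differences of -2.05 in WT and -2.90 in KO, both called, whereas probe set 1 had -0.23 and -0.14 and was not called. The gene's fall was thus measured by 1 of its 2 probe sets.

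Rps19, the gene most often mutated in Diamond-Blackfan anaemia, read 12.84 and 12.93 in untreated WT and 12.12, 11.93 and 11.51 in irradiated WT. In KO it read 12.90 and 12.81 untreated and 12.35, 11.78 and 11.97 irradiated. No irradiated array reached an untreated one. The differences were -1.03 ± 0.16 in WT (limma adjusted p = 0.000163) and -0.82 ± 0.16 in KO (limma adjusted p = 0.000979). Its 2 probe sets were both called lower in WT, at -1.41 and -0.65. Only 1 of the 2 was called in KO, where they had -1.31 and -0.32.

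Rps21 fell by 0.81 in WT and by 1.04 in KO (limma adjusted p = 0.00081 and 7.15e-05), and its 2 probe sets were both called lower in each genotype. For Rps29 the differences were -0.66 and -0.89 (limma adjusted p = 0.00742 and 0.000686). Rps7, which binds MDM2, had -0.64 and -0.88 (limma adjusted p = 0.00716 and 0.000599). Of the 23 small-subunit members, 12 were called lower in both genotypes and 6 in neither. A further 1 was called in WT alone (Rps28) and 4 in KO alone (Rps6, Rps13, Rps20 and Rpsa). Rps20, for example, had -0.24 in WT (limma adjusted p = 0.0876) and -0.29 in KO (limma adjusted p = 0.0427).

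In the large subunit Rpl38, whose loss causes the skeletal defects of Tail short mice, fell most by its gene value in WT. The signal was 12.38 and 12.58 in untreated WT and 11.84, 11.43 and 11.03 in irradiated WT. The KO arrays had 12.51 and 12.58 untreated and 11.52, 11.14 and 11.70 irradiated. The groups did not overlap. The differences were -1.05 ± 0.18 (limma adjusted p = 0.000382) and -1.09 ± 0.18 (limma adjusted p = 0.000223). Of its 7 probe sets, 5 were called lower in each genotype, with differences from -2.82 to -0.74, and a pair of those 5 hold identical values. The other 2 had 0.01 and -0.13 in WT and -0.18 and -0.36 in KO. Probe set 6 read 13.04 and 12.89 in untreated WT against 10.68, 10.14 and 9.79 in irradiated WT, while probe set 2 read 13.00 and 13.05 against 13.04, 12.98 and 13.11. Probe sets of this gene therefore did not move alike. On the tumour arrays probe set 6 read 10.73 to 11.37, also below all its untreated values. The gene value of Rpl38 there was 11.73 to 12.12, likewise below every untreated array.

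Rpl36a, which lies near the exit site for tRNA, differed most between genotypes in size. It read 10.27 and 10.11 in untreated WT and 9.85, 10.004 and 9.76 in irradiated WT, then 10.54 and 10.51 in untreated KO and 9.77, 9.49 and 9.70 in irradiated KO. The difference was -0.32 ± 0.11 in WT (limma adjusted p = 0.036) and -0.87 ± 0.11 in KO (limma adjusted p = 1.5e-05). The difference between these differences was -0.56 ± 0.16 with a limma adjusted p of 0.093, so it did not pass.

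Rpl28 read 8.74 and 8.63 in untreated WT and 7.33, 8.22 and 8.10 in irradiated WT, and 8.63 and 8.81 in untreated KO against 7.13, 7.95 and 7.71 in irradiated KO. The differences were -0.80 ± 0.22 (limma adjusted p = 0.0116) and -1.12 ± 0.22 (limma adjusted p = 0.000979). This gene rests on 1 probe set that was above the filter's level on 13 of 20 arrays. With the probe sets that list Rpl28 beside other symbols added, its differences were 0.14 and 0.065.

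Rpl35, beside the exit tunnel for the new protein, had -0.77 and -0.97 (limma adjusted p = 0.0204 and 0.0045). Rpl23, which binds MDM2, had -0.42 ± 0.10 and -0.77 ± 0.10 (limma adjusted p = 0.00542 and 3.06e-05). Only 1 of its 2 probe sets was called in each genotype. Their differences were -0.89 and 0.04 in WT and -1.38 and -0.15 in KO. For Rpl37a the differences were -0.66 and -0.71 (limma adjusted p = 0.029 and 0.0189). Rpl12, at the base of the stalk, had -0.93 ± 0.22 in WT (limma adjusted p = 0.0035) and -0.51 ± 0.22 in KO (limma adjusted p = 0.0719). Of the 32 large-subunit members tested, 10 were called lower in both genotypes and 17 in neither. A further 1 was called in WT alone (Rpl12) and 4 in KO alone (Rpl13a, Rpl14, Rpl31 and Rpl35a). A call in 1 genotype alone does not show a difference between genotypes. Rpl13a had -0.284 in WT (limma adjusted p = 0.0535) and -0.283 in KO (limma adjusted p = 0.0495). The Rpl14 call, -0.54 in KO, rests on 2 probe sets; with dim probe sets left out its difference was 0.078 and was not called.

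**Figure D2:**
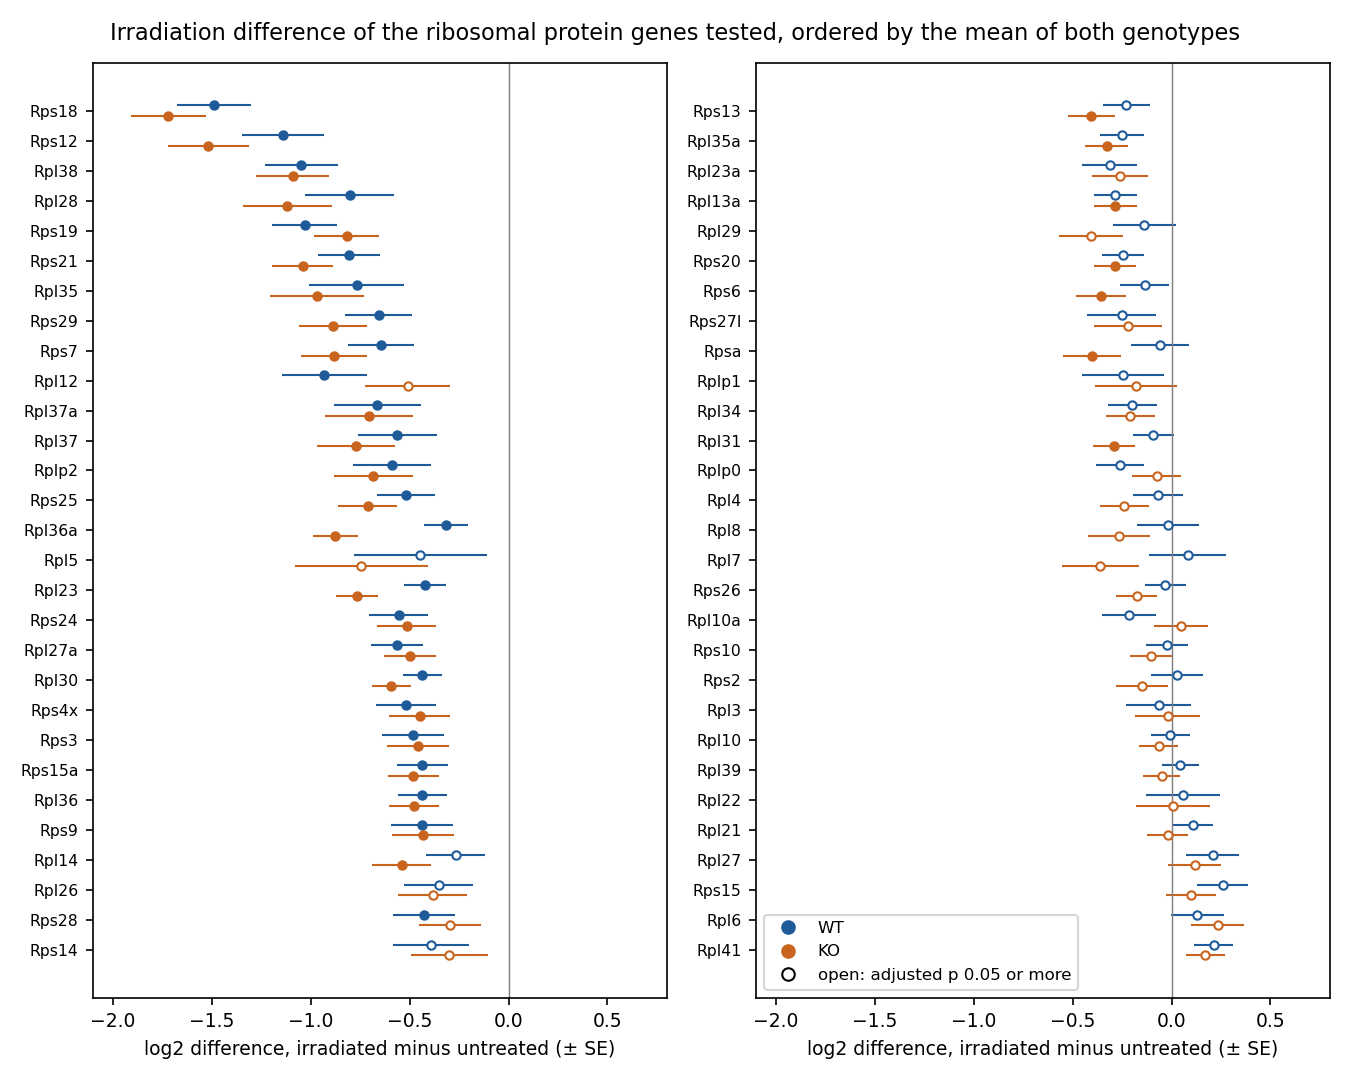
Log2 difference, irradiated minus untreated, with its standard error for the 58 tested members in WT and KO thymocytes, ordered by the mean of both; filled points passed a limma adjusted p under 0.05. Rps18, at -1.49 and -1.72, is at one end, and Rpl41, at 0.21 and 0.17, is at the other and was not called.

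The stalk recruits elongation factors to the ribosome. Of its 3 proteins Rplp2 was lower in both genotypes, with differences of -0.59 ± 0.20 (limma adjusted p = 0.0296) and -0.68 ± 0.20 (limma adjusted p = 0.0123). Rplp1 had -0.25 and -0.18 and Rplp0 had -0.26 and -0.07, and neither passed in either genotype. Rplp0 is often used as a reference gene for RNA levels. Its values were 12.73 and 12.67 in untreated WT, 12.39 and 12.71 in untreated KO, 12.59, 12.44 and 12.29 in irradiated WT and 12.58, 12.30 and 12.55 in irradiated KO.

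The probe sets of Rplp0 did not read alike. Probe set 2 read 11.85 and 11.81 on the untreated KO arrays and between 13.16 and 14.03 on the other 18 arrays. At the level of probe sets it was called higher in irradiated than in untreated KO by 1.65 ± 0.16 (limma adjusted p = 0.000106), and its difference in WT was 0.02 ± 0.16. Between untreated KO and WT its difference was -1.91 ± 0.17 (limma adjusted p = 8.99e-05). Probe set 3 was also lowest on the untreated KO arrays, at 13.29 and 13.18 against 13.66 to 14.15 elsewhere, whereas probe set 1 read 13.79, 13.82, 13.80 and 13.78 on the 4 untreated arrays. Over all members 3 of 168 probe sets were called lower in untreated KO than in WT (1.79%), against 1.7% of all probe sets.

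Some members with a known place in thymocytes or in p53 signalling were not called in either genotype. Rps27l, a p53 target gene, read 11.16 and 11.05 in untreated WT, 11.06, 10.96 and 10.53 in irradiated WT, 11.03 and 11.03 in untreated KO and 11.03, 10.39 and 11.00 in irradiated KO. Its differences were -0.25 ± 0.17 (limma adjusted p = 0.27) and -0.22 ± 0.17 (limma adjusted p = 0.322). Rpl22, needed for the growth of early thymocytes and deleted in some T-cell leukaemias, had 0.06 ± 0.19 and 0.01 ± 0.19 (limma adjusted p = 0.831 and 0.975). Its paralogue Rpl22l1 did not pass the filter and read 6.02 to 6.58 over the 20 arrays. Rpl10, which is mutated in T-cell leukaemia and joins the large subunit late, had -0.01 ± 0.10 and -0.06 ± 0.10 (limma adjusted p = 0.971 and 0.619).

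Rpl5, which binds MDM2 together with Rpl11 and a small ribosomal RNA of the large subunit, had the largest standard error of the tested members in these comparisons. It read 9.77, 9.72 and 8.57 in irradiated WT, 9.46, 8.63 and 10.05 in irradiated KO, 10.05 and 9.56 in untreated WT and 10.10 and 10.14 in untreated KO. The groups overlapped in WT but not in KO. The differences, -0.45 ± 0.34 and -0.74 ± 0.34, did not pass (limma adjusted p = 0.315 and 0.0886). Rpl11 has 1 single-symbol probe set, which was below the filter's level on all 20 arrays and read 4.37 to 6.36, so these data give no usable level for it. Rps6, the substrate of S6 kinase, had -0.14 ± 0.13 in WT (limma adjusted p = 0.413) and -0.36 ± 0.13 in KO (limma adjusted p = 0.0335). Rpsa, also known as the laminin receptor, had -0.06 ± 0.15 (limma adjusted p = 0.782) and -0.40 ± 0.15 (limma adjusted p = 0.0382). Its 2 tested probe sets went opposite ways, at -0.32 and 0.54 in WT and -0.59 and 0.46 in KO. Neither probe set was called, and the KO call of the gene was lost under 7 of the alternative settings.

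Grouped by role, 5 of 12 tested members that bind MDM2 or take part in the ribosome stress response were lower in WT and 6 of 12 in KO, with medians of -0.41 and -0.42. Members mutated in Diamond-Blackfan anaemia or congenital asplenia were lower in 5 of 13 and 7 of 13, with medians of -0.35 and -0.38. The shares of both lists are near those of the members as a whole (25 and 31 of 58), and the lists overlap. Of the 3 members mutated in T-cell leukaemia none was called by limma in either genotype, and their medians were -0.0057 in WT and -0.065 in KO.

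**Figure D3:**
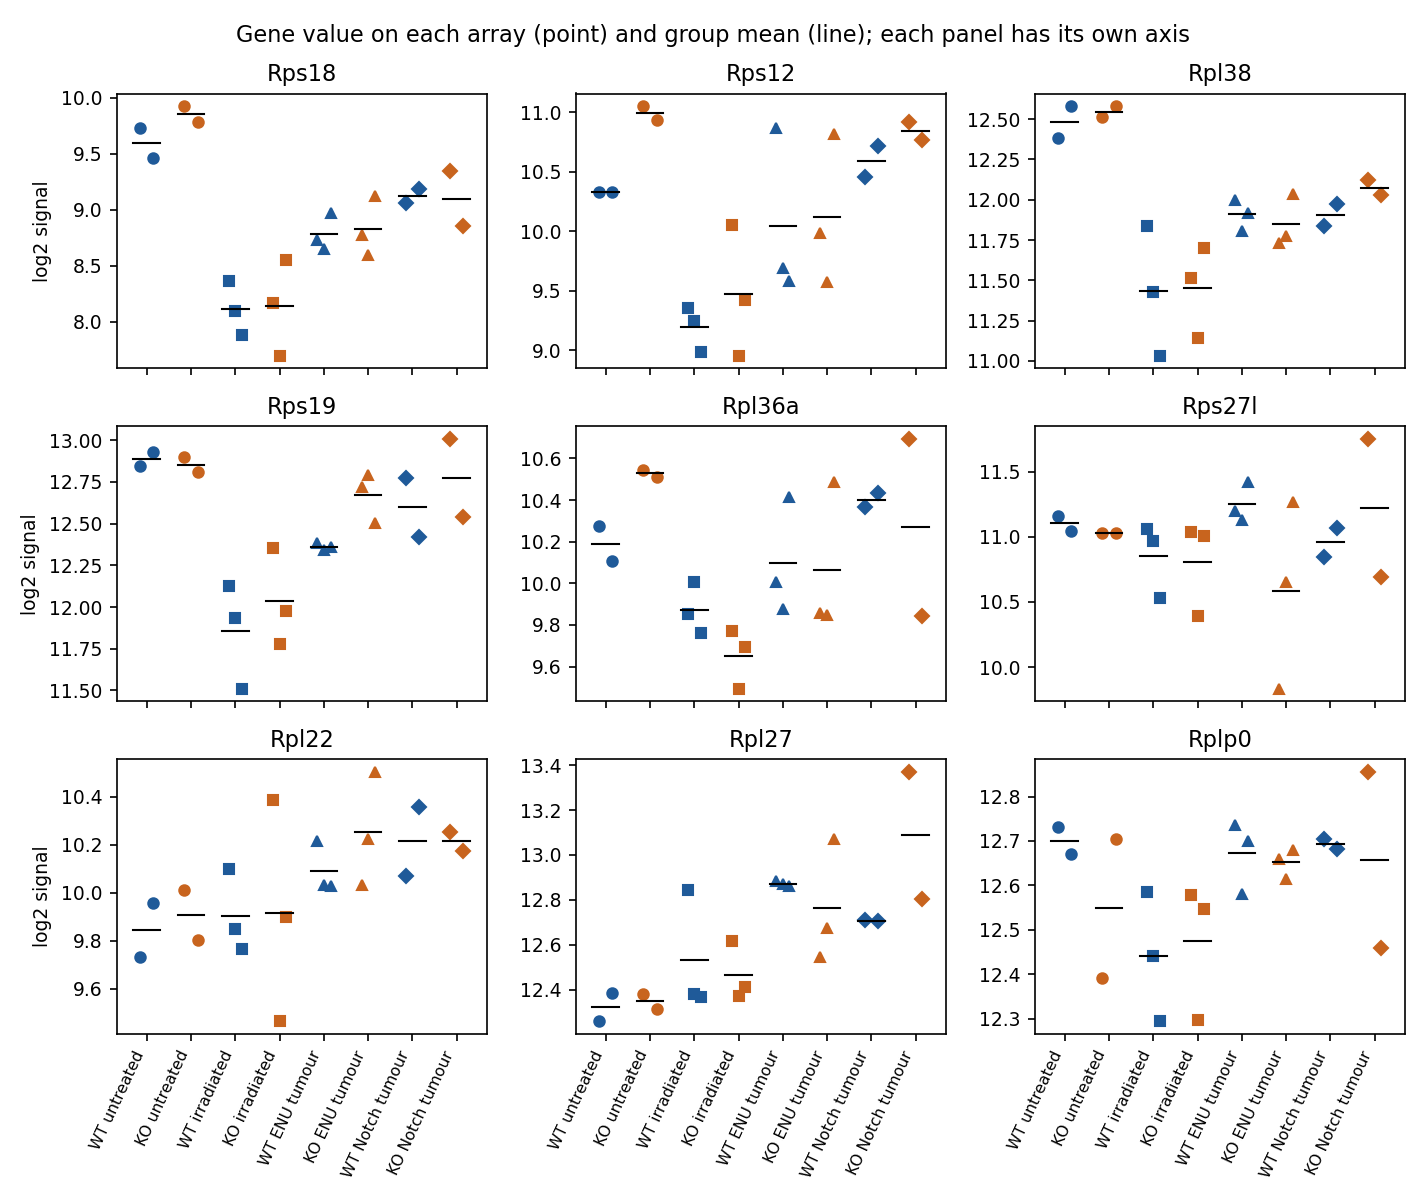
Signal of 9 ribosomal protein genes on each of the 20 arrays (points, log2) with the group mean (line), and an axis of its own in each panel. Rps18, Rps12, Rpl38 and Rps19 are lower on all irradiated arrays than on the untreated arrays of the same genotype, whereas for Rps27l and Rpl22 irradiated and untreated arrays overlap within each genotype.

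The overlap between genotypes was large. Of the 25 members lower in WT, 23 (92%) were lower in KO, and these are 74.2% of the 31 lower in KO. Over all genes tested the shares were 73% and 66.7%. By position alone, all 6 irradiated arrays were below all 4 untreated arrays for 26 of 58 members (44.8%), against 18.1% of all genes tested. Within WT the irradiated arrays were all below the untreated ones for 35 members (33% of all genes tested), and within KO for 41 (36.1%). In the test of the difference between the KO and the WT response, 0 of 58 members passed by limma, against 1.88% of all genes, and 2 members had an unadjusted p under 0.05 (12.8% of all genes). The median of that difference was -0.09, with 41 of 58 members below 0 (51.7% of all genes). The KO side of this test has the limit given above, that its untreated and irradiated groups differed in their Gfi1 probe sets.

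Both bright and dim members fell. Split at the median of their mean levels, 10 of the 29 brighter members were lower in WT and 11 in KO, against 15 and 20 of the 29 dimmer members. At the level of probe sets, 27 of 168 tested member probe sets were called lower in WT (16.1%) and 41 in KO (24.4%), against 11.8% and 14.8% of all probe sets, and 0 and 3 were called higher. The 3 called higher are one of Rpl10a and 2 of Rplp0. Probe sets that list a ribosomal protein symbol among others gave similar shares, 37 of 177 lower in WT (20.9%) and 39 of 177 in KO (22%). The genes that only such probe sets cover differed in how many were called. All 4 tested probe sets listing Rps23 and all 3 listing Rps3a were lower in both genotypes, as was 1 of 2 for Rpl9. For Rpl17 0 of 13 were lower in WT and 2 of 13 in KO, for Rpl15 1 and 0 of 7, for Rpl24 1 and 2 of 5, for Rps16 2 and 1 of 6, and the 1 for Rpl7a was called in neither; none of these probe sets was called higher.

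Other genes of ribosome making were taken from lists. For comparison, 21.7% of all genes tested were called lower in WT and 23.7% in KO, and 13% and 15.1% higher. The mitochondrial ribosome, built from a separate set of proteins, was lower for 31 of 72 genes in WT and for 39 of 72 in KO, with 1 higher in KO, and medians of -0.29 and -0.35. Mrpl21 had -0.68 and -0.69 (limma adjusted p = 0.000127 and 9.15e-05) and Mrps17 had -0.82 and -0.66. Ribosome biogenesis genes were lower for 13 of 37 in WT, with 2 higher, and for 21 of 37 in KO. Nop16, a nucleolar protein, had -0.83 and -0.85, and Gnl3, nucleostemin, had -1.03 and -0.67. Among translation factors and other genes whose mRNAs carry the same pyrimidine start, 5 of 25 were lower and 1 higher in WT, and 4 lower and 1 higher in KO. The shares called lower in this list did not exceed those of all genes tested. Eef1a1, the main elongation factor, was among those not called, at -0.07 and -0.12. Myc, which drives transcription of ribosome genes, had -1.76 and -1.79 (limma adjusted p = 5.47e-09 and 4.43e-09). Of the ribosomal proteins outside the symbol rule, Rpl36al and Rpl7l1 were lower in both genotypes, at -0.83 and -0.98 and at -0.34 and -0.39, and Fau was at 0.02 and -0.01.

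**Figure D4:**
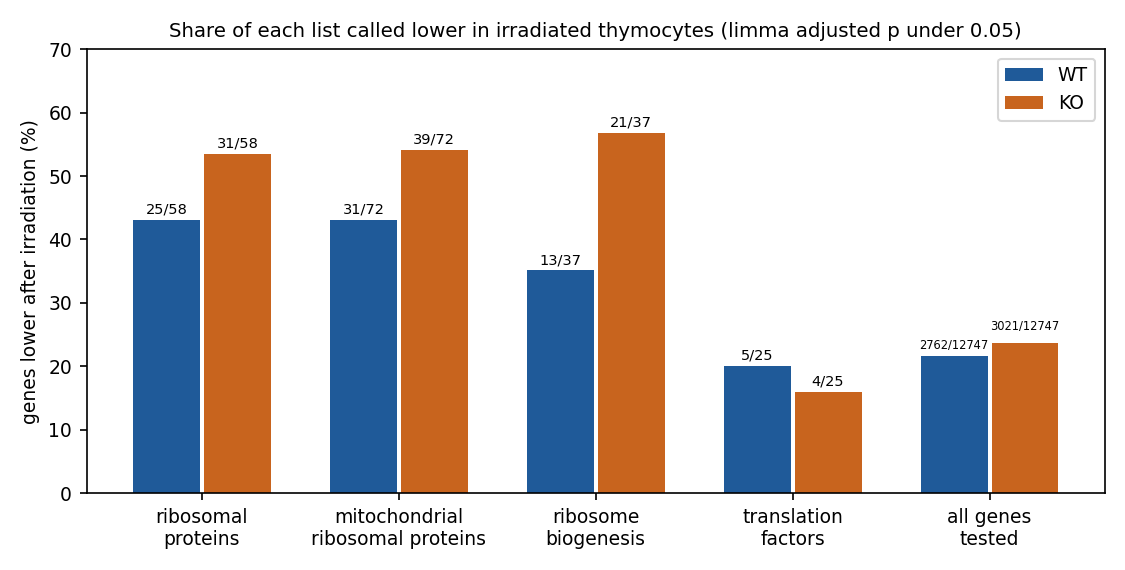
Share of the tested genes of each list called lower in irradiated than in untreated thymocytes (percent, limma adjusted p under 0.05), with the count above each bar. Ribosomal proteins had 25 of 58 in WT and 31 of 58 in KO, against 2762 and 3021 of 12747 genes tested.

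Markers of other cells moved in the same comparison, and their part in the result was not tested. T-cell markers were lower for 9 of 17 in WT and 10 of 17 in KO, and their mean level ran from 12.73 to 12.78 in untreated and 12.35 to 12.43 in irradiated WT, and from 12.67 to 12.71 and 12.22 to 12.33 in KO. Granulocyte markers were lower for 10 of 11 and higher for 1 in WT, where the mean level went from 9.06 to 9.23 down to 7.81 to 7.90. In KO they were lower for 1 of 11 and higher for 2, with 6.82 to 6.88 untreated and 6.95 to 7.02 irradiated. Macrophage and dendritic markers were lower for 12 of 15 in each genotype, B-cell markers for 8 and 9 of 11, and NK markers for 6 and 7 of 9. Erythroid and megakaryocyte markers were lower for 1 of 8 in WT (median 0.13) and 5 of 8 in KO (median -0.77); their mean level was 7.80 to 7.81 untreated and 7.71 to 7.94 irradiated in WT, and 8.99 to 9.09 and 8.23 to 8.43 in KO. Of 13 thymic stroma markers 3 were lower in each genotype, and 2 were higher in WT and 3 in KO. In bulk RNA, fewer cells of a type and less RNA per cell cannot be told apart.

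Genotype was compared next, since the study asked what loss of Gfi1 alters. In untreated thymocytes 0 of 58 members passed between KO and WT by limma, against 12.3% of all genes, and 4 members had an unadjusted p under 0.05 (23.4% of all genes). Most members nevertheless read slightly higher in KO: 48 of 58 differences were above 0 and 10 below, with a median of 0.093, whereas 53.9% of all genes tested were below 0. Markers of other cells differed in the same comparison, and their part in the members' shift was not tested. In KO 10 of 11 granulocyte markers were lower (median -2.57), and 10 of 15 macrophage and dendritic, 6 of 11 B-cell, 5 of 9 NK, 5 of 8 erythroid and megakaryocyte (median 1.13) and 3 of 13 thymic stroma markers were higher. None of 17 T-cell markers was called by limma, with a median of -0.053. Both KO arrays were above both WT arrays for 33 of 58 members (28.6% of all genes tested) and below them for 5 (33.3%). The smallest p belonged to Rps12, at 0.66 ± 0.23 (limma adjusted p = 0.0704), followed by Rpl36a at 0.34 ± 0.12 (limma adjusted p = 0.087) and Rpl6, a large-subunit protein, at -0.39 ± 0.15 (limma adjusted p = 0.0986).

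Among irradiated thymocytes 1 of 58 members passed, against 14.9% of all genes, of which 6.81% were lower in KO. Rpl31, a protein at the exit of the large subunit's tunnel, was lower in KO by -0.41 ± 0.09 (limma adjusted p = 0.0058). It read 7.95, 7.96 and 7.89 in WT and 7.60, 7.38 and 7.59 in KO, without overlap. In untreated thymocytes it read 8.13 and 7.92 in WT and 7.80 and 7.83 in KO. Its 1 probe set was above the filter's level on 9 of 20 arrays. The median of all 58 differences was 0.01. Leaving out the second irradiated KO array gave 4 members called, 3 of them higher, and leaving out the third irradiated WT array gave 2.

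Tumours varied more between arrays than thymocytes, and no member passed in any comparison among them. Between ENU tumours labelled KO and WT, 0 of 58 members passed by limma, as did 0% of 13025 genes, and 1 member had an unadjusted p under 0.05 (13.7% of all genes). The median difference of the 58 members was -0.019. Rps27l had the widest spread there, at 9.84, 10.66 and 11.27 in the tumours labelled KO and 11.20, 11.13 and 11.42 in WT. The difference was -0.66 ± 0.38 (limma adjusted p = 0.398), and the groups overlapped.

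Between KO and WT Notch tumours 0 of 58 passed, against 0.0154% of all genes, and 2 had an unadjusted p under 0.05 (5.99%). The median of the members was 0.33 above their own means on the first KO Notch array and 0.06 below on the second, the one with B-cell markers. Leaving out that second array moved the median difference of the 58 members from 0.060 to 0.28, and leaving out the first moved it to -0.14, with 0 called each time. WT Notch and WT ENU tumours also differed in 0 of 58 members (0.023% of all genes), with 1 at an unadjusted p under 0.05 (7.42%). The KO effects of Notch and ENU tumours, compared with each other, differed in 0 of 58 members (0% of all genes), again with 1 at an unadjusted p under 0.05 (7.17%). With 2 or 3 arrays a group, a member that missed the threshold is not shown to be alike.

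WT ENU tumours were also set against untreated WT thymocytes, in a model of all 20 arrays. The members showed no common direction there: the median was -0.00, with 29 of 58 below 0 (48.6% of all genes). Of 58 members 2 passed, against 20.1% of all genes. Rpl27 was higher by 0.55 ± 0.18 (limma adjusted p = 0.0472), with 12.88, 12.87 and 12.86 in the tumours and 12.26 and 12.38 in thymocytes. Rps18 was lower by -0.82 ± 0.23 (limma adjusted p = 0.0232), with 8.73, 8.65 and 8.97 against 9.73 and 9.47. Neither gene's arrays overlapped between these groups. Without either the first or the second untreated array, or the second tumour array, 0 members passed. Of the other lists, 14 of 38 ribosome biogenesis genes and 7 of 25 translation factors were higher and none of them lower. Over all genes tested 9.87% were called higher and 10.2% lower. Of 73 mitochondrial ribosomal proteins 3 were higher and 1 lower, with a median of 0.01. Untreated WT arrays serve in this comparison and in that of irradiation. They are numbered 77 and 78 and the WT ENU arrays 51 to 53, so tumour and array number cannot be told apart. Granulocyte markers were also lower in the tumours, 8 of 12, at 7.04 to 7.23 against 9.06 to 9.23 in the thymocytes, and their part in these 2 differences was not tested.

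The members varied together across the 20 arrays. The correlation of each gene with the median of the other members had a median of 0.73, and 49 of 62 (79%) were above 0.5, against 11.5% of other genes. Rpl35 had 0.94, Rpl37 0.93 and Rps3 0.90. At the other end were Rpl39l at -0.34, Rpl6 at -0.18, Rpl41 at -0.15, Rpl39 at -0.05 and Rpl3l at -0.04. Rpl3l and Rpl39l, paralogues with restricted tissue use, were below the filter's level on nearly all arrays. Rpl39 and Rpl41 were bright and varied little, at 13.804 to 14.035 and 13.568 to 13.942 over the 20 arrays. The arrays share group means, so these correlations carry no test. Of genes outside the family, Eif3i at 0.92, a subunit of an initiation factor, and Naca at 0.91, which binds new proteins at the ribosome, followed the member median most closely. Cox6b1, Mrpl23, Gm6274, Dbi, 0610011F06Rik, Trnau1ap, Prdx1 and Ndufa13 came next, at 0.91 to 0.89.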

How the data were processed

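Per the labels' protocols, RNA was extracted with a Qiagen micro kit, amplified with NuGEN Ovation Pico and labelled with biotin. The authors deposited a value table whose values (3.37 to 15.01) fit the log2 scale; its base, background correction and normalization are not stated there. Probe sets were named from the platform annotation. A gene's value was the median of its single-symbol probe sets after centring each over 20 arrays, with the mean level added back. Genes above the 40th percentile of an array on at least 2 arrays were fitted with limma 3.58.1 (R 4.3.3; lmFit, eBayes) across thymocyte arrays, tumour arrays or all 20, and p-values were adjusted by Benjamini-Hochberg over all genes tested. The code was tested on simulated data. Since no label ties the arrays of a group to different animals, the p-values may measure only technical spread. The number of arrays limits precision.

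Members and lists were chosen with earlier results of these data known. By rule, the text names up to 10 members with the largest falls and rises past an adjusted p of 0.05 in each comparison (or the 3 with the smallest p), a fixed set (Rps27l, Rpl22, Rpl22l1, Rpl5, Rpl11, Rpl10, Rps19, Rps6, Rpsa, the stalk and the restricted paralogues), up to 4 genes per other list, the members farthest from the member median and the 10 genes most like it. Other names (those called in 1 genotype, Rpl23, Rps13, Rpl41, Eef1a1, Fau and probe sets that disagree) were chosen after their values were seen. Alternatives were the mean of probe sets, no filter, dim or bright probe sets left out, quantile normalization, other arrays in the fit, a replicate block and leaving out each array; leaving out repeated probe sets and adding several-symbol ones were chosen after seeing the data. Promoter windows came from RefSeq (GRCm38.p6).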

Additional observations from a re-analysis of the deposited data

Results flagged for a closer look

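Rplp0 probe set 2 passed the test of the difference between the KO and WT irradiation responses. The Gfi1 probe sets also differed between the untreated and irradiated KO groups, and the part of this was not tested. Rplp0 probe set 2 was low on the untreated KO arrays alone, and read 13.16 to 14.03 on all others. Its log2 difference, irradiated minus untreated, was 1.64 ± 0.23 (SE) larger in KO than in WT (limma adjusted p = 0.0275 over all probe sets). It was 1.65 in KO, where the untreated arrays read 11.85 and 11.81 and the irradiated arrays 13.67, 13.16 and 13.62, and 0.02 in WT, where the arrays read 13.79 and 13.68 untreated and 13.81, 13.77 and 13.67 irradiated. The gene-level value of Rplp0, the median of its 6 probe sets after each was centred over the 20 arrays, did not pass that test (0.19 ± 0.17, limma adjusted p = 0.751). No group had the 4 arrays needed to test single arrays as outliers.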

How the results depend on the processing

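Among the called differences of members named in the text, those of Rpl28 and Rpl14 were the only ones to turn direction under an alternative. With several-symbol probe sets added, the Rpl28 log2 difference, irradiated vs untreated WT thymocytes, was 0.14 and that of Rpl28, irradiated vs untreated KO thymocytes, 0.065; the Rpl14 difference was 0.078 in KO with dim probe sets left out; the cause was not tested. Members called after irradiation went from 25 to 4 in WT and from 31 to 10 in KO with all 20 arrays in 1 fit, and lay between 20 and 33 under the other settings. For KO against WT irradiated, 1 became 0 with dim probe sets left out, with all arrays in 1 fit and with several-symbol probe sets added. For WT ENU tumours against untreated thymocytes, 2 became 4 with the mean of probe sets, 5 with only their 5 arrays fitted, 1 without a filter and 1 under the replicate block. The replicate numbers did not pair samples (correlations of -0.318 to 0.201 between irradiated WT and KO of the same number); in a fit with the replicate block, 1 member instead of 0 passed between untreated KO and WT, and 23 instead of 31 after irradiation in KO. Leaving out 1 array gave 0 to 1 members for untreated KO against WT, 1 to 4 for irradiated KO against WT, 5 to 26 for irradiation in WT, 17 to 33 in KO, 0 to 1 for the difference between those responses and for ENU tumours against thymocytes, and 0 for the other tumour comparisons. The single member in the difference between responses passed without the third irradiated WT array. The calls kept in every such fit were 5 of 25 in WT and 16 of 31 in KO. A lone array left in a group was assumed to vary like the others.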

Other observations

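The Rplp0 probe set that was low on the untreated KO arrays alone belongs to a gene on the chromosome of Gfi1. In GRCm38.p6, Gfi1 spans chr5:107716655-107725805, and 4 members lie on the same chromosome. These are Rpl5 at chr5:107900508-107909005, Rplp0 at chr5:115559467-115563729, Rpl6 at chr5:121204501-121209241 and Rpl21 at chr5:146832890-146837032. Their gene-level log2 differences between KO and WT untreated thymocytes were 0.32, -0.15, -0.39 and 0.04, and between irradiated ones 0.03, 0.03, -0.29 and -0.08; none passed the limma threshold. Rpl6 read 8.68 and 8.25 in untreated WT, 8.20 and 7.94 in untreated KO, 8.46, 8.66 and 8.67 in irradiated WT and 8.35, 8.42 and 8.15 in irradiated KO, so that the KO arrays lay below the WT arrays in both states. The same held for 33.3% of all genes tested in untreated thymocytes and for 13.4% in irradiated ones. Rpl6 rests on 1 probe set, which was above the filter's level on 18 of 20 arrays. In ENU tumours Rpl6 read 8.31, 8.56 and 8.46 in WT and 7.85, 7.43 and 8.41 in those labelled KO, which overlapped.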
